A study of Mus musculus with 6 samples.

Results

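The genes described here are Ppara, Ppargc1a, Srebf1, Mlxipl and Foxq1, which encode transcriptional regulators of lipid and glucose metabolism. They were found by symbol among 389 genes of a deposited liver table, and each of the 5 had 1 row. RNA was taken from whole liver of Usp28 knockout mice (KO, 3 samples), which lack this deubiquitinase in the whole body, and of Usp28 wildtype mice (WT, 3 samples). Mice of both genotypes had eaten a methionine-choline deficient diet, used to induce steatohepatitis, for 4 weeks beginning at an age of 8 weeks, and a control diet was not analysed here. The labels do not tie the 3 samples of a group to separate animals, so the spread between them may be partly technical. The authors had kept genes whose absolute log2 fold change between the genotypes was at least 1.004 and whose false discovery rate was at most 0.0494. A difference in each of the 5 genes was therefore a condition of having a row, and the tests below describe its size and its spread.

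PPARα, the product of Ppara, is a nuclear receptor that binds fatty acids and switches on genes of fatty acid oxidation and ketogenesis in fasting liver. The product of Ppargc1a is a coactivator that binds PPARα and other nuclear receptors and raises mitochondrial oxidation and glucose output. Srebf1 encodes the sterol regulatory element binding protein that insulin uses to induce fatty acid synthesis, and Mlxipl encodes ChREBP, which binds carbohydrate response elements when glucose or fructose enters the hepatocyte. Foxq1 encodes a forkhead transcription factor that has been described in hepatocytes as a repressor of glucose production. Ppara and Ppargc1a are called the oxidative regulators below, and Srebf1 and Mlxipl the lipogenic regulators.

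The set of RefSeq start sites used here covered 4 of the 5 genes, all but Foxq1. It gave 7 windows of 300 bases (250 before a start and 50 from it) on GRCm38.p6. The 5 windows below are those of the oxidative and lipogenic regulators at which GENCODE M21 places the 5′ end of a protein-coding transcript. They are shown because the oxidative and the lipogenic regulators differed between genotypes in opposite directions. Each is written 5′ to 3′ on the strand of the gene, and capitals mark the letters of the motifs searched.
Ppara, chr15:85735526-85735825, plus strand: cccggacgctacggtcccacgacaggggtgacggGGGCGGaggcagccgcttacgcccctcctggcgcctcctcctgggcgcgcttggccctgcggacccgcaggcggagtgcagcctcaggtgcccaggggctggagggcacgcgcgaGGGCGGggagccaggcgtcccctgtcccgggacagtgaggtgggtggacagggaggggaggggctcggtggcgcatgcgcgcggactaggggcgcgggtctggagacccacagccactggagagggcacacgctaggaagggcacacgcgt
Ppargc1a, chr5:51567676-51567975, minus strand: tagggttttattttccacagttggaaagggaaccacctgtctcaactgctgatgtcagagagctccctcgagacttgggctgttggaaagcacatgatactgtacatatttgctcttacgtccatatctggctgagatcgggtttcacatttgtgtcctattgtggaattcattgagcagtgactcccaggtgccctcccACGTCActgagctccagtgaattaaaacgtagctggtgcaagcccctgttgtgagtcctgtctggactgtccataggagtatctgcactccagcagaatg
Srebf1, chr11:60220578-60220877, minus strand: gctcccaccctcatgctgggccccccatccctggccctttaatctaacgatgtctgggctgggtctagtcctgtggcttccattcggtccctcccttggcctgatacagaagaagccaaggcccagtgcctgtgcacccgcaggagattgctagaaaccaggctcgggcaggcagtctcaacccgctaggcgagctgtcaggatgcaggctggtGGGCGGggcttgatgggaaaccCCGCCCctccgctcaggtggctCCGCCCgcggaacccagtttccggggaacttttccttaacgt
Srebf1, chr11:60210422-60210721, minus strand: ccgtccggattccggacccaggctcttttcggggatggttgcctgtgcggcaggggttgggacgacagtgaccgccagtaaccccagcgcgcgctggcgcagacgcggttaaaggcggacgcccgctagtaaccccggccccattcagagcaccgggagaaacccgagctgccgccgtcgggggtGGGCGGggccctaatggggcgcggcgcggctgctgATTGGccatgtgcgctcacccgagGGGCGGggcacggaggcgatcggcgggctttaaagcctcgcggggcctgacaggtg
Mlxipl, chr5:135106641-135106940, plus strand: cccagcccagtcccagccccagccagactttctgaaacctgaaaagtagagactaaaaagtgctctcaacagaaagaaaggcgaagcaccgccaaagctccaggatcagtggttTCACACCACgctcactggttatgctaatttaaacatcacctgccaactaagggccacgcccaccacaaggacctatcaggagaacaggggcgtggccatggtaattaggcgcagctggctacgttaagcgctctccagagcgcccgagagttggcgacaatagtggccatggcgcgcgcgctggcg

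The search covered both strands. GC boxes, GGGCGG, stood in 35.7% of all 32851 windows. The Ppara window held 2 of them, the first Srebf1 window 3 and the second Srebf1 window 2. The CCAAT box, found in 37.4% of all windows, lies at -30 from the start in the second Srebf1 window. The sterol response element, TCACNCCAC, is the kind of site that SREBP proteins bind, and 1.24% of all windows held it. The Mlxipl window held 1 match to it, at -136. The core of the cAMP response element, TGACGT, stood in 7.51% of all windows and once in the Ppargc1a window, on the reverse strand at -50. That window is the distal of the gene's start regions, and another protein-coding transcript begins 13803 bases downstream of it. The E-box, CACGTG (7.15% of all windows), and the nuclear receptor half-site, AGGTCA (16.3%), were in none of the 5 windows. An E-box was found in another Mlxipl window, at -98 from a start where GENCODE M21 places a processed transcript without a coding sequence. No motif holds the letters of another, and no binding was measured.

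In KO liver, transcripts of both oxidative regulators were lower and those of both lipogenic regulators and of Foxq1 were higher. Transcripts of Ppara stood at 2.10-fold and those of Ppargc1a at 2.87-fold higher levels in WT than in KO. Those of Mlxipl, Srebf1 and Foxq1 were 2.42-fold, 3.08-fold and 4.56-fold higher in KO. All 5 passed edgeR's quasi-likelihood test at an adjusted p of 0.05, a threshold that 99.7% of the 389 listed genes passed (39.8% higher in KO, 59.9% lower), as their selection entails. The members' count therefore says nothing particular about them. Libraries held between 20350000 and 24160000 reads, as recovered from counts and FPKM (fragments per kilobase of transcript, scaled to library depth). Values in groups of 3 are given below in the order of replicates 1, 2 and 3, and the log2 change is that of KO over WT. WT replicate 3 stood apart from the other WT libraries for 3 of the 5 genes and for some macrophage markers, given below. It also stood apart for Lcn2, the only neutrophil marker with a row. Without WT replicate 3 all 5 members passed the same edgeR test, as did 372 of the 389 listed genes. The members' log2 changes were then -1.18 for Ppara, -1.83 for Ppargc1a, 2.54 for Srebf1, 1.59 for Mlxipl and 2.26 for Foxq1. In bulk liver, fewer cells expressing a gene and less of its RNA per cell cannot be told apart.

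**Figure D1:**
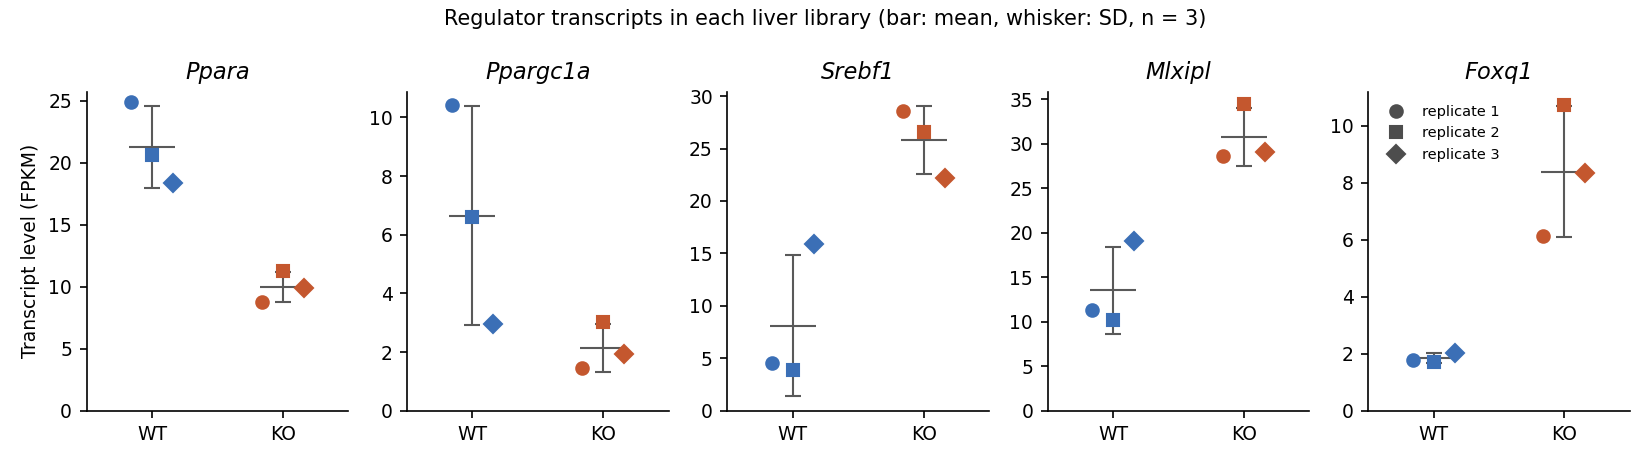
Transcript level of each regulator in FPKM (vertical axes, each from 0) in the 3 WT and 3 KO libraries, with the group mean and SD. Ppara and Foxq1 separate the genotypes with narrow WT groups, while WT replicate 3 stands apart from the other WT libraries for Ppargc1a (2.95 FPKM), Srebf1 (15.9 FPKM) and Mlxipl (19.1 FPKM).

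Ppara (ENSMUSG00000022383, chromosome 15, 85734983 to 85802819, plus strand) is the receptor through which fatty acids induce their own oxidation. Its level was 24.9, 20.6 and 18.4 FPKM in WT and 8.79, 11.2 and 9.88 FPKM in KO. The lowest WT library stood 1.64-fold above the highest KO library, so the groups did not overlap, as for 93.3% of the listed genes (55% lower in KO and 38.3% higher). The log2 change was -1.07 ± 0.29 (SE, edgeR adjusted p = 0.00931). The authors' own log2 change for Ppara was -1.09, near the smallest absolute value they kept, 1.004. The edgeR value also lies next to the median of all listed genes, -1.10. That median is taken over 156 higher and 233 lower genes, so it is not a typical size for a lower gene. Ppara passed with libraries scaled by their recovered depth. It did not under 3 scalings set from the listed genes themselves, all of which were selected to differ. TMM gave a log2 change of -0.50 (edgeR adjusted p = 0.14) and DESeq2's size factors gave -0.41 (edgeR adjusted p = 0.22). The sum of the listed counts gave -0.075 (edgeR adjusted p = 0.86). Those scalings moved the median listed gene up by 0.58, 0.66 and 0.97 on the log2 scale, and 64.3%, 60.7% and 46.5% of the listed genes passed under them. That median was then -0.53, -0.45 and -0.13, and Ppara stayed next to it.

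Ppargc1a (ENSMUSG00000029167, chromosome 5, 51454250 to 51567726, minus strand) was the least abundant of the 5 in every KO library. It stood at 10.4, 6.59 and 2.95 FPKM in WT and at 1.46, 3.03 and 1.93 FPKM in KO. WT replicate 3 lay at the level of KO replicate 2, so the FPKM groups overlapped, while WT replicates 1 and 2 lay above every KO library. As CPM (counts scaled to the recovered depth) the values were 45.5, 33.6 and 16.9 in WT and 8.20, 14.5 and 10.7 in KO, and on that scale the groups did not overlap, as for 94.3% of the listed genes. The log2 change was -1.52 ± 0.40 (SE, edgeR adjusted p = 0.00922), and the test did not pass under the same 3 scalings (-0.98, -0.84 and -0.44, edgeR adjusted p = 0.0536, 0.0757 and 0.384). GENCODE M21 places 4 unclassified gene models inside Ppargc1a, of which 3 are on its strand, and how the authors assigned reads between them is not given in the sources used here.

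Srebf1 (ENSMUSG00000020538, chromosome 11, 60199089 to 60222581, minus strand) was the member with the widest WT group. Its level was 4.57, 3.92 and 15.9 FPKM in WT against 28.6, 26.5 and 22.2 FPKM in KO. WT replicate 3 stood 3.47-fold above WT replicate 1 and 4.05-fold above WT replicate 2, and the lowest KO library stood 1.40-fold above it. The log2 change was 1.63 ± 0.50 (SE, edgeR adjusted p = 0.0136). Leaving out WT replicate 3 moved this value most, to a log2 change of 2.54 (edgeR adjusted p = 0.000107). Srebf1 encodes the SREBP1a and SREBP1c forms from separate starts, which a single row per gene does not tell apart.

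Mlxipl (ENSMUSG00000005373, chromosome 5, 135089890 to 135138382, plus strand), the carbohydrate sensor, was the most abundant of the 5 in every KO library. It stood at 11.4, 10.1 and 19.1 FPKM in WT and 28.7, 34.5 and 29.1 FPKM in KO. Again WT replicate 3 was the highest WT library, 1.68-fold above WT replicate 1, and the lowest KO library was 1.5-fold above it. The log2 change was 1.27 ± 0.32 (SE, edgeR adjusted p = 0.00824), and leaving out the third WT library gave 1.59.

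Foxq1 (ENSMUSG00000038415, chromosome 13, 31556134 to 31560976, plus strand) had the largest fold change of the 5 and no shift in WT replicate 3. It stood at 1.79, 1.7 and 2.03 FPKM in WT, from 177, 199 and 200 counts, and at 6.12, 10.7 and 8.34 FPKM in KO. The lowest KO library was 3.01-fold above the highest WT library. The WT libraries spread by 9.27% of their mean and the KO libraries by 27.5% (SD over mean, n = 3 each). The log2 change was 2.19 ± 0.32 (SE, edgeR adjusted p = 0.00229). The gene A530084C06Rik lies on the opposite strand over most of Foxq1 and had no row of its own. Whether strand was used in counting is not given in the sources used here, so reads from the 2 genes may not be told apart.

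These adjusted p-values cover the listed genes. The authors' own p-values and rates imply that 16198 genes were tested (between 16194 and 16202). With the same edgeR p-values adjusted over that number, none of the 5 passed (adjusted p from 0.0954 for Foxq1 to 0.568 for Srebf1), although all 5 had an unadjusted p under 0.05, and 1.29% of the listed genes passed. With DESeq2's p-values adjusted in that way, Foxq1 (4.28e-07), Mlxipl (0.0277) and Ppargc1a (0.0456) passed and Ppara (0.0523) and Srebf1 (0.0929) did not, where 39.3% of the listed genes passed. In the authors' deposited table the false discovery rate over all their genes was 1.37e-15 for Foxq1 and 9.66e-11 for Mlxipl. In the authors' deposited table it was 0.000151 for Srebf1, 0.000581 for Ppara and 0.00308 for Ppargc1a.

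**Figure D2:**
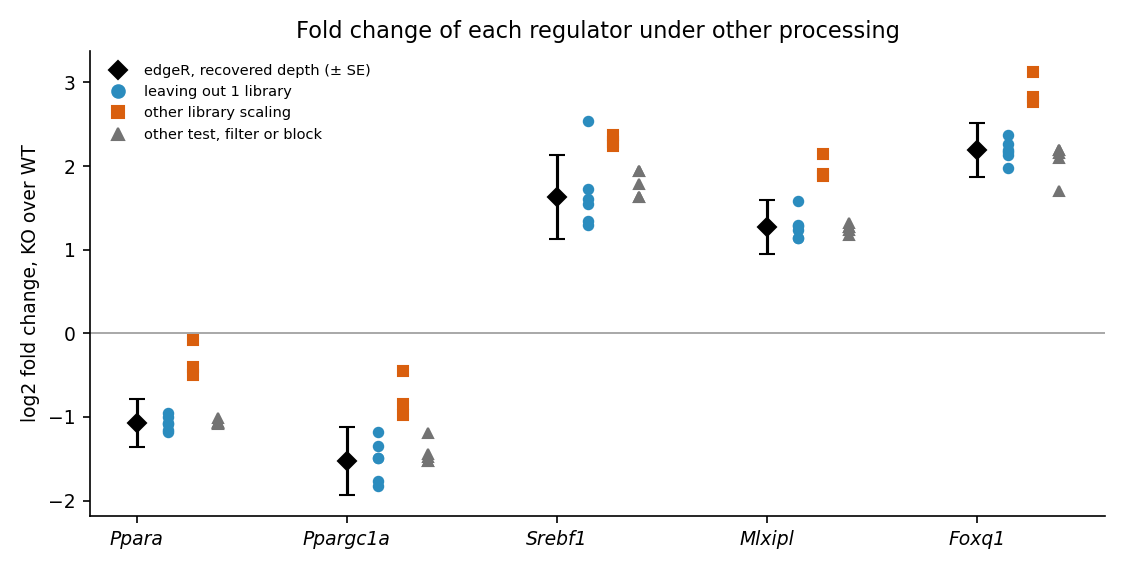
Log2 fold change of KO over WT (vertical axis) for each regulator: black diamonds give edgeR's value with its SE, and coloured marks give it without 1 library, under other library scalings, or under another test, filter or block. Ppara and Ppargc1a move toward 0 under the other scalings, to -0.07 and -0.44 at the nearest, while Srebf1, Mlxipl and Foxq1 move away from it, and no mark crosses 0.

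The comparison of lipogenic with oxidative regulators inside a library does not depend on how libraries are scaled to each other. The mean log2(FPKM + 0.1) of Srebf1 and Mlxipl minus that of Ppara and Ppargc1a was -1.15 in WT replicate 1 and -0.87 in WT replicate 2. It was 1.22 in WT replicate 3, while the KO libraries had 2.95, 2.35 and 2.504. By this mean, oxidative transcripts outweighed lipogenic ones in WT replicates 1 and 2, and the reverse held in WT replicate 3 and in every KO library. Single pairs, given below, did not all follow it in the WT libraries. WT replicate 3 stood 1.13 below the lowest KO library and 2.10 above the higher of the other WT libraries. The WT mean was -0.27 ± 1.296 and the KO mean 2.60 ± 0.31 (SD, n = 3 per genotype), which differ by 2.87 on the log2 scale (3.61 without WT replicate 3). No test is given, because the genes were selected on this contrast.

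**Figure D3:**
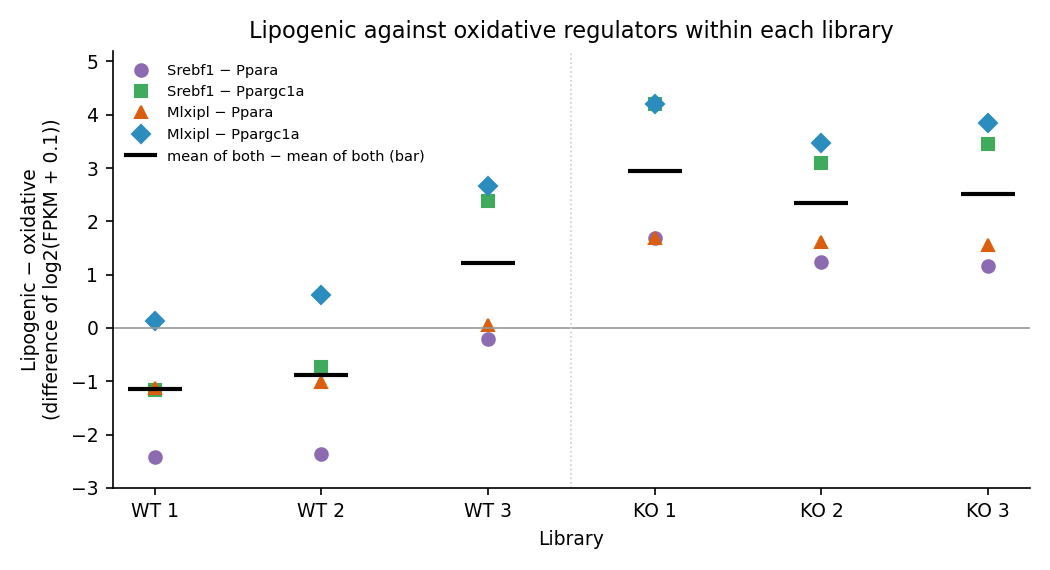
Lipogenic minus oxidative regulators, as the difference of log2(FPKM + 0.1) (vertical axis), for each of the 4 pairs of genes and their mean (black bar) in each of the 6 libraries. WT replicates 1 and 2 have means of -1.15 and -0.87, the KO libraries lie between 2.35 and 2.95, and WT replicate 3 lies between them at 1.22.

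The 4 pairs were also compared singly, as ratios of FPKM. Srebf1 over Ppara was 0.184, 0.191 and 0.862 in WT against 3.25, 2.36 and 2.25 in KO. Mlxipl over Ppara was 0.456, 0.493 and 1.04 in WT and 3.26, 3.07 and 2.95 in KO, and on the log2(FPKM + 0.1) scale the KO libraries had an SD of 0.07 (n = 3). Ratios to Ppargc1a spread more. Srebf1 over Ppargc1a was 0.439, 0.595 and 5.38 in WT against 19.6, 8.76 and 11.5 in KO, so WT replicate 3 was nearer to the KO libraries than to the other WT libraries. Mlxipl over Ppargc1a was 1.09, 1.54 and 6.48 in WT against 19.6, 11.4 and 15.1 in KO, so Mlxipl was the higher in every library. None of the 4 pairs overlapped between the groups. Each sets a gene selected as higher in KO over a gene selected as lower, so a gap is largely what the selection entails. Other such pairs were not counted, and 93.3% of single listed genes did not overlap.

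Within each pair of like function the genotypes overlapped. Ppara over Ppargc1a was 2.39, 3.12 and 6.23 in WT against 6.02, 3.71 and 5.12 in KO. Mlxipl over Srebf1 was 2.48, 2.59 and 1.21 in WT against 1.0, 1.301 and 1.31 in KO. In both ratios WT replicate 3 lay beside the KO libraries. The ratio of Foxq1 to Ppara was 0.0719, 0.0826 and 0.110 in WT and 0.696, 0.956 and 0.844 in KO, with WT replicate 3 far nearer to the other WT libraries than to any KO library.

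The order of levels, compared per transcript length as FPKM, was the same in WT replicates 1 and 2: Ppara, Mlxipl, Ppargc1a, Srebf1 and Foxq1 from high to low. In all 3 KO libraries it was Mlxipl, Srebf1, Ppara, Foxq1 and Ppargc1a. WT replicate 3 had Mlxipl (19.1 FPKM), Ppara (18.4 FPKM) and Srebf1 (15.9 FPKM) close together on top, then Ppargc1a and Foxq1. Group means in WT were 21.3 ± 3.30 for Ppara, 13.5 ± 4.87 for Mlxipl, 8.12 ± 6.71 for Srebf1, 6.65 ± 3.73 for Ppargc1a and 1.84 ± 0.17 FPKM for Foxq1 (SD, n = 3). Neighbours from Ppara to Ppargc1a had overlapping spreads (mean ± SD) there. In KO the means were 30.8 ± 3.26 for Mlxipl, 25.8 ± 3.24 for Srebf1, 9.97 ± 1.23 for Ppara, 8.40 ± 2.31 for Foxq1 and 2.14 ± 0.81 FPKM for Ppargc1a (SD, n = 3), and Mlxipl and Srebf1, like Ppara and Foxq1, had overlapping spreads.

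Distances from the KO mean, in log2(FPKM + 0.1), differed among the 5 regulators in WT replicate 3. Ppara was 0.88 above the KO mean there, against 1.32 and 1.04 in WT replicates 1 and 2, and Foxq1 was -1.96 against -2.13 and -2.20. Both kept to the other WT libraries. Ppargc1a was 0.51 above the KO mean, against 2.29 and 1.64. Srebf1 was -0.69 against -2.46 and -2.68, and Mlxipl was -0.68 against -1.43 and -1.59, each nearer to the KO mean than in the other WT libraries.

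WT replicate 3 also differed in some markers of other liver cells. Of 16 macrophage markers 6 had a row (Itgam, Itgax, Gpnmb, Mmp12, Lgals3 and Cd14), and their summed level was 67.1, 30.8 and 168 FPKM in WT and 20.7 to 28.9 FPKM in KO. In WT replicate 3 this sum was mostly Lgals3 (76.1 FPKM) and Mmp12 (53.4 FPKM), while Gpnmb stood at 11.3 FPKM in WT replicate 1 and 11.5 FPKM in WT replicate 3, and Itgam at 0.78 and 1.01 FPKM. The neutrophil marker list had 1 row of 7, Lcn2, at 28.8, 33.9 and 120 FPKM in WT and 8.02 to 12.4 FPKM in KO. The fibroblast list had 1 row of 10, Timp1, at 0.45, 0.33 and 3.55 FPKM in WT and 0.05 to 0.26 FPKM in KO. No marker of hepatocytes (10 sought), bile duct cells, endothelial cells, T cells or B cells had a row, so the tissue label was not checked against them. Usp28 had no row either, which leaves the genotypes unchecked by the targeted gene. The part of these cells in the regulators' levels was not tested.

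Genes that PPARα and its coactivator are known to induce were lower in KO. Of 70 oxidative target genes sought, 29 had a row, and all 29 passed as lower (edgeR, median log2 change -1.56, against -1.10 for all listed genes, of which 59.9% passed as lower). The median of -1.10 covers genes of both directions (156 higher and 233 lower), so the 2 medians do not compare like with like. All 233 listed genes that were lower passed. Under TMM, DESeq2's size factors and the sum of the listed counts, 13, 13 and 6 of the 29 passed, as lower in each case. Of all 389 listed genes, 94, 80 and 27 passed as lower under the same scalings. None of the 29 overlapped between WT and KO in FPKM. Nor did 214 of the 233 listed genes that were lower (55% of all listed genes), so this is not particular to the targets. Ehhadh, a peroxisomal oxidation enzyme, was at 1209, 907 and 169 FPKM in WT and at 117, 104 and 86.1 FPKM in KO. Cpt1b, a carnitine palmitoyltransferase, was at 3.41, 3.11 and 0.62 FPKM in WT and 0.46, 0.49 and 0.34 FPKM in KO. Slc22a5, the carnitine importer, was at 35.9, 33.7 and 14.0 FPKM in WT and 4.48, 6.0 and 5.91 FPKM in KO. In each of these WT replicate 3 lay far below the other WT libraries, although Ppara itself did not. Their log2 changes were -2.90 ± 0.63, -2.53 ± 0.59 and -2.34 ± 0.40 (SE, edgeR adjusted p = 0.00544, 0.00685 and 0.0029). Not all of the 29 fell in WT replicate 3, and the median of the 29 is given below. In WT, Acot2 was at 24.2, 19.9 and 23.1 FPKM, Plin2 at 1052, 764 and 1021 FPKM, and Cd36 at 81.8, 41.9 and 74.9 FPKM.

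Vnn1, which encodes pantetheinase, and Acot1, a thioesterase of acyl-CoA, completed the 5 oxidative targets with the largest changes. Vnn1 was at 77.7, 74.2 and 28.6 FPKM in WT and 11.4, 13.7 and 15.04 FPKM in KO. Acot1 was at 71.0, 73.5 and 14.8 FPKM in WT and 8.74, 10.4 and 5.52 FPKM in KO, but it is a near copy of Acot2, so how reads were split between the 2 genes is uncertain. Over the 29 targets the median height above the KO mean, in log2 units, was 1.92, 1.58 and 0.51 in the WT libraries. Over all listed genes that were lower, the same medians were 1.48, 1.32 and 1.18. The values of Ppargc1a, 2.29, 1.64 and 0.51, ran beside those of the targets, and those of Ppara, 1.32, 1.04 and 0.88, were closer together. Whether either regulator sets the level of the targets was not tested. These are descriptions over 3 WT libraries and carry no test. With KO replicate 2 left out, 20 of the 29 targets passed, as did 279 of the 389 listed genes.

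**Figure D4:**
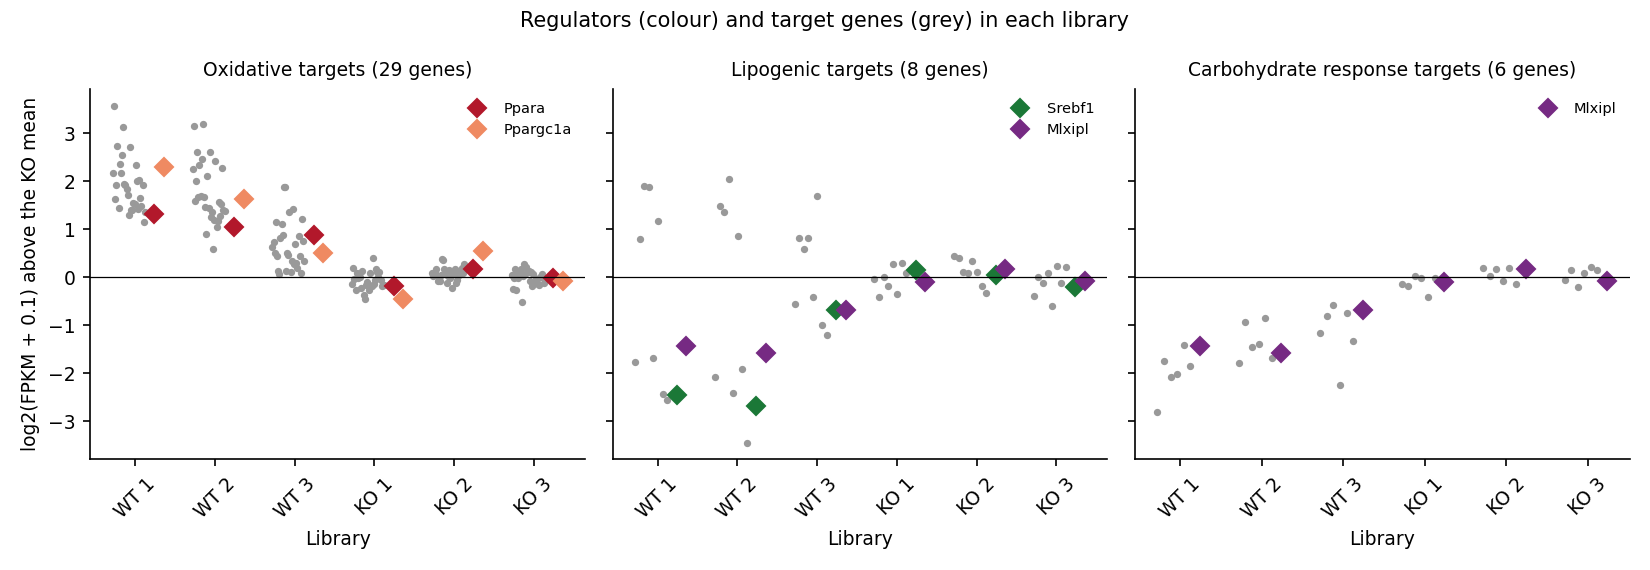
Height of each gene above its own KO mean, in log2(FPKM + 0.1) (vertical axis), in each of the 6 libraries, with target genes as grey points and regulators as coloured diamonds. In WT replicate 3 the median oxidative target stands at 0.51, near Ppargc1a (0.51) and below Ppara (0.88), and Srebf1 (-0.69) and Mlxipl (-0.68) stand nearer to 0 than in the other WT libraries.

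Of 26 genes of mitochondrial biogenesis and partners of PGC1A only Alas1 had a row. Alas1, which encodes the first enzyme of haem synthesis and is induced by the coactivator, was at 1345, 958 and 768 FPKM in WT and 270, 513 and 670 FPKM in KO, a log2 change of -1.06 ± 0.40 (SE, edgeR adjusted p = 0.0247). Its KO libraries spread widely, and leaving out the first WT library, or the first or second KO library, ended the call. The related coactivator gene Ppargc1b, the receptors Ppard and Pparg, the sterol regulator Srebf2 and the partner genes Mlx and Mlxip had no row.

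With recovered depth, target genes of the lipogenic regulators did not share one direction. Of 36 lipogenic targets 8 had a row, and 4 passed as higher (Acly, Elovl6 and Mid1ip1 among them) and 4 as lower (Acacb, Elovl2, Elovl5 and Fads2), with a median log2 change of 0.14, where 39.8% of the listed genes passed as higher and 59.9% as lower. Under TMM and under DESeq2's size factors 4 passed as higher and 1 as lower, and with the sum of the listed counts 4 passed as higher and 0 as lower. Of all 389 listed genes, 156, 156 and 154 passed as higher under these scalings, and 94, 80 and 27 as lower. Mid1ip1 encodes an activator of acetyl-CoA carboxylase and was at 3.96, 5.74 and 10.9 FPKM in WT and 26.8, 19.3 and 19.9 FPKM in KO. Elovl6, a fatty acid elongase, was at 4.33, 2.59 and 10.7 FPKM in WT and 17.2, 17.9 and 9.36 FPKM in KO, so its groups overlapped, and it passed only without WT replicate 3 or KO replicate 3 when 1 library was left out. In both, as in Srebf1, WT replicate 3 was the highest WT library.

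Of the 4 lipogenic targets that were lower, Elovl2, Elovl5 and Fads2 encode enzymes of polyunsaturated fatty acid synthesis, and Acacb encodes the carboxylase whose product restrains mitochondrial fatty acid import. Elovl5, an elongase of polyunsaturated fatty acids, was at 317, 356 and 152 FPKM in WT and 76.3, 91.3 and 92.6 FPKM in KO, a log2 change of -1.66 ± 0.38 (SE, edgeR adjusted p = 0.00632). Elovl2, an elongase of still longer chains, was at 269, 186 and 108 FPKM in WT and 72.6, 78.3 and 66.5 FPKM in KO (log2 change -1.38 ± 0.38, SE, edgeR adjusted p = 0.00987). For both, WT replicate 3 was the lowest WT library. Without WT replicate 2, 5 of the 8 lipogenic targets passed, and Acly, Acacb and Elovl6 did not. In that fit 345 of the 389 listed genes passed.

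Carbohydrate response targets, which ChREBP is known to induce, had 6 rows of 27 sought, and all 6 passed as higher (39.8% of the listed genes did), with a median log2 change of 1.43. Pklr, the liver pyruvate kinase gene, was at 36.7, 75.2 and 115 FPKM in WT and 233, 296 and 250 FPKM in KO (log2 change 2.04 ± 0.48, SE, edgeR adjusted p = 0.00688). Slc2a5, the fructose transporter gene, was at 0.48, 0.79 and 0.39 FPKM in WT and 2.22, 2.13 and 2.37 FPKM in KO. Khk and Tkfc, which encode ketohexokinase and triokinase of fructose breakdown, had log2 changes of 1.12 ± 0.34 and 1.25 ± 0.41 (SE, edgeR adjusted p = 0.0136 and 0.0159). Slc2a5 was lowest in WT replicate 3, unlike Mlxipl, whereas Pklr, Khk and Tkfc were highest there among the WT libraries. With WT replicate 1 left out, Khk, Tkfc and Hgfac no longer passed, which left 3 of the 6, and Tkfc also failed without WT replicate 2 or KO replicate 2.

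Of 30 genes of glucose output and glycogen 5 had a row, and 4 passed as higher and 1 as lower (39.8% and 59.9% of all listed genes). Pklr and Ppp1r3b count here and among the carbohydrate response targets. Ppp1r3b, which directs phosphatase to glycogen, was at 9.10, 10.3 and 13.1 FPKM in WT and 32.5, 30.0 and 36.9 FPKM in KO (log2 change 1.61 ± 0.30, SE, edgeR adjusted p = 0.00335). Pygl, the liver glycogen phosphorylase gene, was at 60.9, 71.3 and 94.3 FPKM in WT and 152, 175 and 163 FPKM in KO. Gys2, liver glycogen synthase, was the 1 gene of the list that was lower, at 157, 99.4 and 55.2 FPKM in WT and 47.2, 53.2 and 43.5 FPKM in KO (log2 change -1.12 ± 0.39, SE, edgeR adjusted p = 0.0194), and it passed without WT replicate 2 or 3 but not without any of the other 4 libraries. Under the 3 other scalings Gys2 did not pass. Pck1 and G6pc, the gluconeogenic genes that Foxq1 has been described to repress, had no row.

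Among 103 other liver regulators sought, 8 had a row, of which 6 passed as lower and 2 as higher (59.9% and 39.8% of all listed genes). Insig2, whose product holds SREBP in the endoplasmic reticulum, was at 241, 269 and 189 FPKM in WT and 74.5, 73.1 and 82.8 FPKM in KO (log2 change -1.50 ± 0.31, SE, edgeR adjusted p = 0.00462). Its groups did not overlap, as for 93.3% of the listed genes, and a link between Insig2 and Srebf1 was not tested. Nr4a1, an early response nuclear receptor, was at 6.18, 5.31 and 6.44 FPKM in WT and 1.51, 1.19 and 1.78 FPKM in KO, a log2 change of -1.95 ± 0.31 (SE, edgeR adjusted p = 0.00239). Hes1 (-1.49 ± 0.39), a Notch target, and Tead1 (-0.99 ± 0.31), a partner of YAP, were lower, and Atf4 (1.02 ± 0.39) and Ddit3 (1.20 ± 0.48), of the integrated stress response, were higher (log2 change, SE). Ddit3 overlapped between the groups. Atf4 passed only in the fits without WT replicate 3 among those that leave out 1 library, Ddit3 passed only without WT replicate 3 or KO replicate 1, and Tead1 failed without KO replicate 1 or 3.

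Nr0b2 and Nr1d1, the corepressor of bile acid signalling and a clock repressor, were lower in KO (log2 change -1.14 ± 0.42 and -1.06 ± 0.40, SE, edgeR adjusted p = 0.0230 and 0.0252). Nr0b2 was at 14.6, 19.6 and 18.1 FPKM in WT and 4.45, 13.5 and 5.75 FPKM in KO. Nr1d1 was at 31.9, 28.3 and 28.8 FPKM in WT and 8.97, 23.8 and 9.98 FPKM in KO. KO replicate 2 was the KO library nearest to WT for both, and neither gene passed without KO replicate 1 or 3, nor Nr0b2 without WT replicate 2 and Nr1d1 without WT replicate 1. It was also the highest KO library for Ppara and Ppargc1a, and for Mlxipl and Foxq1 it was the one farthest from WT. Of 26 forkhead genes sought, Foxq1 was the only one with a row.

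The deposited annotation marks 22 listed genes with DNA-binding transcription factor activity, among them Ppara, Srebf1, Mlxipl and Foxq1. Of the 22, 17 passed as higher in KO and 5 as lower, a median log2 change of 1.26 against -1.10 for all listed genes, of which 39.8% passed as higher and 59.9% as lower. By WT mean, Ppara stood below only Atf4 (38.5 FPKM) and Nr1d1 (29.7 FPKM) among the 22. By KO mean, Mlxipl stood below only Atf4 (78.05 FPKM) and Hhex (43.4 FPKM), with Srebf1 next. Under the deposited pathway term for insulin resistance stood 14 listed genes, 4 of them members (Ppara, Ppargc1a, Srebf1 and Mlxipl), with 4 genes higher and 10 lower. Under the term for PPAR signalling stood 16, of which 15 were lower.

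Genes with the profile most like each regulator were found by the root mean square difference of centred log2(FPKM + 0.1) over the 6 libraries. For Mlxipl they were Abcb11 (0.04), the bile salt export pump, Tle3 (0.09) and Mug2 (0.10). Abcb11 was at 56.0, 48.1 and 96.7 FPKM in WT and 137, 165 and 135 FPKM in KO, a profile that followed Mlxipl library by library. For Ppara they were Tmtc2 (0.09), Mustn1 (0.10) and Rhbdd2 (0.11), none of them among the oxidative targets. For Ppargc1a they were Unc119 (0.22), Nodal (0.24) and Gal3st1 (0.26), for Srebf1 Cebpe (0.24), Sult1c2 (0.24) and Aqp8 (0.25), and for Foxq1 A1bg (0.31), Zfp982 (0.33) and Adamts7 (0.35). Nodal rests on 0 to 22 counts per library. No member was among the 3 nearest genes of another, and the closest pair was Ppara and Ppargc1a (0.49).

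Counts and FPKM of the same gene also give the transcript length the authors' software assumed in each library. For Foxq1, which has 1 annotated transcript, it was 4841 to 4854 bases in all libraries. For Ppargc1a it was 4367, 5106 and 5714 bases in WT replicates 1, 2 and 3 and 5615, 4787 and 5533 bases in KO replicates 1, 2 and 3, a ratio of 1.31 between the extremes. Of 237 listed genes with at least 50 counts and 1 FPKM in every library, 12 (5.06%) had a ratio at least as wide, and the median was 1.01. WT replicate 3 had the longest of these lengths and KO replicate 2 the shortest of the KO lengths, the 2 libraries that overlapped for Ppargc1a in FPKM and not in CPM. For Srebf1 the length was 3932, 3960 and 3873 bases in WT and 3795, 3778 and 3783 bases in KO, 3.6% longer in WT. Of the 237 genes, 83 had a ratio between extremes at least as wide as that of Srebf1 (1.05). The Srebf1 lengths did not overlap between the genotypes, but how many of the other genes share this was not counted. For Mlxipl it ranged from 2375 to 2770 bases and for Ppara from 2728 to 2880 bases, with the genotypes overlapping.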

How the data were processed

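Total RNA of 6 liver samples was made into NEBNext Ultra libraries, per the labels' protocols. The submitters' processing notes name HISAT2, RSEM, fastp 0.18.0 and StringTie 1.3.1. The sources used here give neither their roles nor the build, the annotation or the test. The deposited table holds the authors' read counts in whole numbers and FPKM per gene and sample, with their mean FPKM per group, a log2 fold change, a p-value and an FDR. Positions come from GENCODE M21 (GRCm38), matched by gene ID.

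Depth was recovered as the median of count over FPKM and length in genes with 1 annotated transcript. Counts of all 389 genes entered a quasi-likelihood fit in edgeR 4.0.16 (R 4.3.3, recovered depth as library size, no filter, Benjamini-Hochberg over the 389 genes). SEs come from the size of the log2 fold change and the root of edgeR's F. The scripts were tested on simulated data. Alternatives used limma 3.58.1 and DESeq2 1.42.0, other scalings, a filter, a replicate block and leaving out each library.

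Named were the 5 members, up to 5 passing genes of each list with the largest change, every row of 2 regulator lists, and the 3 nearest profiles. Other genes named (Acly, Acacb, Fads2, Hgfac and those of the marker lists) complete counts. Values of Acot2, Plin2 and Cd36 were added after they were seen. Members and lists were chosen with earlier results of these data known. One gene of the lists is not reported here.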

Additional observations from a re-analysis of the deposited data

How the results depend on the processing

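Every direction of the 5 regulators was kept under all 16 alternatives, and leaving out 1 library ended no call of theirs. Their log2 fold changes then ran from -1.18 to -0.95 (Ppara), -1.83 to -1.18 (Ppargc1a), 1.297 to 2.54 (Srebf1), 1.14 to 1.59 (Mlxipl) and 1.97 to 2.37 (Foxq1). The lipogenic minus oxidative difference of 2.87 ran from 2.43 to 3.61.

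Library scaling changed many calls. Of the 389 listed genes, 388 passed with recovered depth (39.9% of them higher), 250 with TMM (62.4% higher), 236 with DESeq2's size factors (66.1% higher) and 181 with the sum of listed counts (85.1% higher). These last 3 scalings treat most listed genes, or their sum, as unchanged between libraries, although every listed gene was selected to differ. Listed counts made up 8.74%, 8.81% and 5.45% of the recovered depth in WT and 3.77%, 3.76% and 3.73% in KO. A call lost under these scalings therefore cannot show that a gene was unchanged. Under each of these 3, 3 of the 5 regulators passed. Ppara was then at -0.50, -0.41 and -0.075, and Ppargc1a at -0.98, -0.84 and -0.44. Of 45 targets 25, 25 and 17 passed, of 29 oxidative ones 13, 13 and 6, and of 8 lipogenic ones 5, 5 and 4 (1, 1 and 0 of the 4 lower ones).

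Adjusting edgeR's p-values over all genes the authors tested, an alternative chosen after seeing the data, left 5 listed genes, 0 regulators and 0 of the oxidative, lipogenic, carbohydrate, glucose and joint targets. Ppara (-1.07), Ppargc1a (-1.52), Srebf1 (1.63), Mlxipl (1.27) and Foxq1 (2.19) then did not pass. DESeq2's p-values adjusted so, also chosen after seeing the data, left 153 listed genes, 3 regulators (not Ppara at -1.07 or Srebf1 at 1.63), and 25 targets (16 oxidative, 5 lipogenic, 3 carbohydrate). Genes without a row were ranked as unchanged in both.

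When 1 library was left out, 279 to 372 listed genes, 31 to 45 targets, 20 to 29 oxidative, 5 to 8 lipogenic and 3 to 6 carbohydrate targets passed. The replicate block left 382 listed genes and ended no regulator's call. Same-numbered samples deviated together by r = 0.05, 0.08 and -0.03, and not every sample correlated best with its own number. The labels do not say whether a number marks a shared litter or day, and these values cannot decide it.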

Other observations

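Hhex, a homeobox factor of liver development named after its values were seen, had the highest mean level after Atf4 in KO among the 22 listed transcription factors, and in WT stood below Atf4, Nr1d1, Ppara, Mlxipl and Hes1. It stood at 7.25, 4.34 and 16.6 FPKM in WT and at 46.3, 39.9 and 44.0 FPKM in KO, with a log2 change of 2.21 ± 0.46 (SE, edgeR adjusted p = 0.00462). As with Srebf1 and Mlxipl, the third WT library was the highest of the WT libraries and lay below every KO library. Cebpe, a CCAAT enhancer binding factor known from granulocytes and the listed gene nearest to Srebf1, stood at 0.40, 0.27 and 1.90 FPKM in WT and 2.86, 3.06 and 3.36 FPKM in KO.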
